A study of Mus musculus with 120 samples.

Results

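The genes described here build the carriers that move newly made proteins from the endoplasmic reticulum (ER) to the cell surface. They are 72 protein-coding genes, taken by symbol and not by expression from the 46078 genes listed, of which 21519 are protein-coding: 14 genes of the COPII coat and its partners (Sar1, Sec13, Sec16, Sec23, Sec24, Sec31), 9 genes of the COPI coat (Arcn1 and the Cop genes), 11 Tmed genes, 31 SNARE genes (Stx, Vamp, Vti1, Snap and Sec22) and 7 Stxbp genes. The RNA came from mouse group 2 innate lymphoid cells (ILC2), tissue lymphocytes that secrete interleukin (IL) 13 and IL-5. Single cells were watched for the secretion of 1 of these cytokines, called the index, and cells are named IL-13 or IL-5 cells after it. Each was lifted with a glass capillary and sequenced as 1 of 120 separate 3′ libraries. For each index there were 60 cells, and each cell belonged to 1 of 6 states. Pre-stimulation cells (5) were taken before the stimulus, transition cells (11 at each time) at 30, 60 or 90 min after their own secretion began under IL-2 and IL-33, and activated and silent cells (11 each) after 8 h of IL-2 and IL-33, with and without a secretion signal. All cells were lineage-negative, c-Kit+ Sca-1+ ILC2 from the mesenteric fat of 20 pooled wildtype C57BL/6 mice, expanded in culture with IL-2, so the pre-stimulation cells were cultured cells too. No label ties a cell to an animal or a culture. A group of cells was therefore treated as 1 sample, and no test between groups was possible.

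Proteins bound for secretion leave the ER in vesicles coated with COPII, in which the small GTPase Sar1 recruits an inner layer of Sec23 and Sec24 and an outer cage of Sec13 and Sec31. COPI coats carry ER residents and receptors back from the Golgi and between its cisternae, and the Tmed proteins (the p24 family) span the membrane of both kinds of vesicle and select cargo. Vesicles then fuse through SNAREs, where 1 R-SNARE on one membrane (Vamp and Sec22b) zips up with Qa, Qb and Qc helices on the other (Stx, Vti1 and Snap), under Sec1/Munc18 proteins such as Stxbp2. In lymphocytes this route carries cytokines out, and Stx11, Stxbp2 and Vamp8 are best known for granule release.

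The levels below are counts per 1000000 gene reads (CPM) of the summed reads of a group, and a comparison is the log2 ratio of 2 such levels. A ratio was called only where it was at least 2-fold and stayed at least 2-fold in the same direction when any 1 cell of either group was left out. A call means that the direction held on leaving out any 1 of these cells, not that it would recur in other cells. The size is less firm: of 124 called member ratios, 98 moved by over 1.5 times in fold on leaving out some 1 cell. A group at 0 reads was set to 3 reads, and a fold against it is written as at least its value. Genes were compared where the 12 group levels averaged 20 CPM or more, which kept 39 of the 72 members and 4866 genes in all. Values per cell of the larger groups are given as the range and median over the cells with at least 84667 gene reads, 9 to 11 cells a group. Intervals are at 95% and cover counting error only, since reads carried no molecular identifiers. Reads came from 3′ ends, so levels are compared between groups and not between genes.

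Gene reads per cell had a median of 254001 and ranged from 65 to 785198, and 6 cells lay under 84667. No 2 cells had identical counts. All 12 ILC2 markers had reads, with a summed level of 5144 to 12117 CPM per group, lowest in the activated groups. B cell, adipocyte and stromal markers were at 0 throughout. Of the 6 T cell markers 4 had reads while Cd4 and Cd8a were at 0, and their sum was 1128 and 1195 CPM in the IL-13 and IL-5 pre-stimulation cells, 0 in both activated groups and 20.3 to 523 CPM in the silent and 30 min groups. Before stimulation this sum was Cd3g alone, with Cd3d, Cd3e and Trac at 0 CPM in both indexes. Mast cell markers summed to 0 to 326 CPM (2 of 4 with reads, Mcpt4 and Cma1 at 0), endothelial markers to 0 to 175 CPM (1 of 3, Cdh5 and Kdr at 0) and myeloid markers to 0 to 38.3 CPM (2 of 5, Lyz2, Csf1r and Itgax at 0). Because Cd3g moved with the pre-stimulation state, the ratios were recomputed without the cells that held a Cd3g read, which kept 3 of 5 IL-5 pre-stimulation cells, 9 silent IL-5 and 6 silent IL-13 cells and 9 cells of each index at 30 min. Of 90 called member ratios that could be recomputed, 63 kept their call, 26 lost it and 1 reversed. With 1 IL-13 pre-stimulation cell left, IL-13 ratios to pre-stimulation could not be recomputed at this cut. The IL-13 pre-stimulation cells left out held 993, 91, 2 and 2 Cd3g reads. A cut above 2 reads, which would keep more of them, was not run. The titles carry 2 dates per index whose meaning is not stated. All pre-stimulation cells have the first date of their index. The indexes share no date, so a difference between the indexes cannot be told apart from a difference of dates.

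Together the members took 3856 to 5658 CPM per group. The share of members called lay near the share of all genes called, on either side of it. For IL-13, 30 min against pre-stimulation gave 12 of 39 members (8 higher and 4 lower), beside 29.8% of all genes tested (21% higher and 8.82% lower). Activated against pre-stimulation gave 12 of 39 members (9 higher and 3 lower), beside 35.9% of all genes tested (25.9% higher and 10% lower), and silent against pre-stimulation 10 of 39 members (9 higher and 1 lower), beside 30.2% of all genes tested (22.6% higher and 7.58% lower). Activated against silent cells gave 9 of 39 members (4 higher and 5 lower), beside 28.3% of all genes tested (13.6% higher and 14.6% lower), and 30 min against activated cells 16 of 39 members (5 higher and 11 lower), beside 33.9% of all genes tested (14.9% higher and 19% lower). Among the members, higher calls thus outnumbered lower ones against pre-stimulation, as they did among all genes. For IL-5, 30 min against pre-stimulation gave 14 of 39 members (13 higher and 1 lower), beside 34.6% of all genes tested (26% higher and 8.59% lower). Activated against pre-stimulation gave 16 of 39 members (11 higher and 5 lower), beside 41% of all genes tested (29.6% higher and 11.4% lower), and silent against pre-stimulation 17 of 39 members (14 higher and 3 lower), beside 35.4% of all genes tested (26.3% higher and 9.1% lower). Activated against silent cells gave 9 of 39 members (3 higher and 6 lower), beside 21.1% of all genes tested (10.8% higher and 10.2% lower), and 30 min against activated cells 9 of 39 members (7 higher and 2 lower), beside 27.5% of all genes tested (14% higher and 13.5% lower). These comparisons share their pre-stimulation, activated and silent cells and are not independent of each other.

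**Figure D1:**
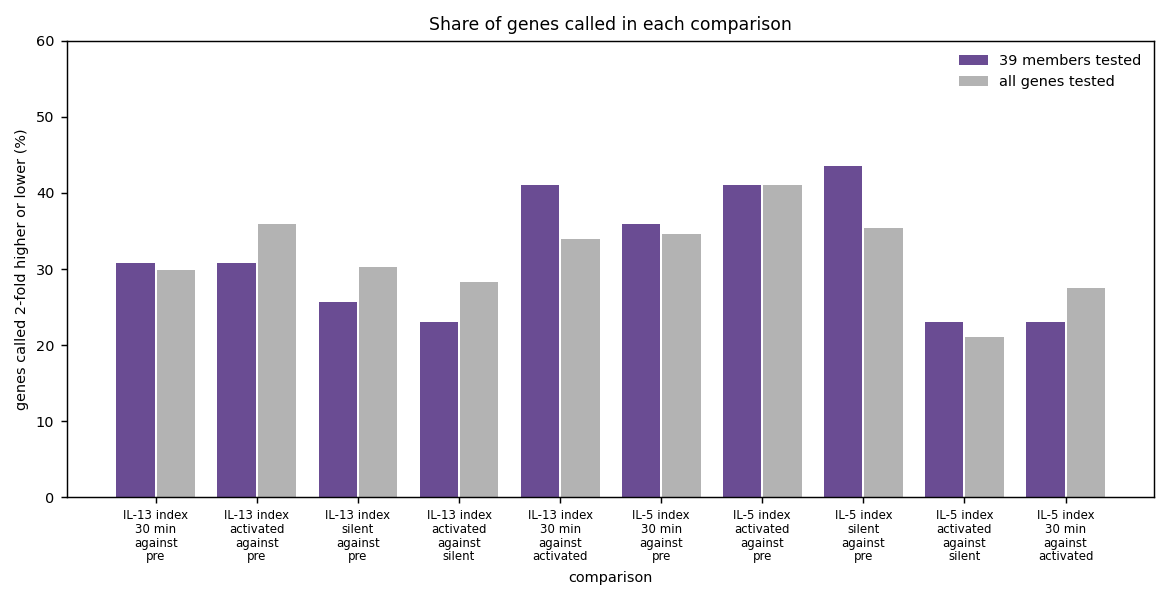
Share of genes called (percent, y axis) in each of the 10 comparisons (x axis) for the 39 members tested (purple) and for all 4866 genes tested (grey). The purple bars lie on either side of the grey ones, from 9 of 39 members against 28.3% of genes to 17 of 39 against 35.4%.

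The median log2 ratio of the members lay near that of all genes in IL-13 cells and above it against pre-stimulation in IL-5 cells. At 30 min against pre-stimulation it was 0 for the members and 0 for all genes tested in IL-13 cells, and 1.04 and 0.21 in IL-5 cells. Activated against pre-stimulation cells gave 0.14 and 0.23 in IL-13 cells and 0.44 and 0.19 in IL-5 cells, and silent against pre-stimulation cells 0.26 and 0.31, and 0.70 and 0.24. For activated against silent cells the medians were 0 and -0.08 (IL-13) and -0.09 and -0.07 (IL-5), and for 30 min against activated cells -0.15 and -0.15 (IL-13) and 0.39 and 0.02 (IL-5). The pre-stimulation cells of the 2 indexes, which had not yet secreted, differed from each other as well. Between them 15 of 39 members were called, against 19.9% of all genes tested. In the activated state, 5 of 39 differed between the indexes, against 17.6% of genes. The comparison of the indexes was added after the data were seen, and it cannot be told apart from a comparison of title dates. Differences from pre-stimulation rest on 5 cells a group, and the plot of levels by group shows how far the same state can lie apart.

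**Figure D2:**
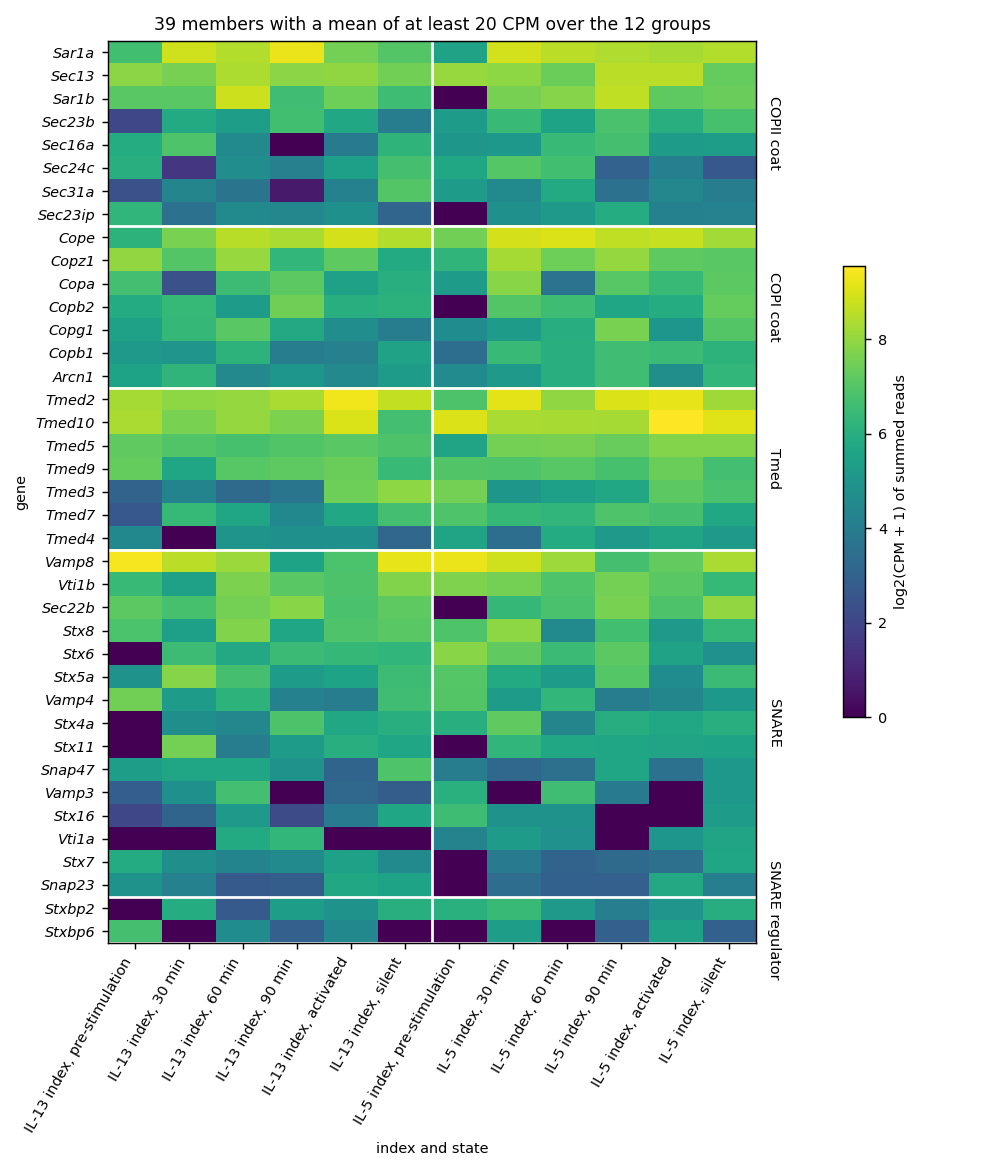
Level of the 39 members tested, as log2(CPM + 1) of summed reads (colour), by class (rows) in the 12 groups of index and state (columns). Sar1a, Sec13, Cope, Tmed2, Tmed10 and Vamp8 hold reads in every group, and dark cells mark groups at 0 CPM, such as Sar1b, Copb2 and Sec22b in IL-5 pre-stimulation cells and Stx6 in IL-13 pre-stimulation cells.

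The start regions of 6 members are shown, 5 because the coat, cargo receptor and SNARE results below turn on them and Sec13 as the COPII gene whose group levels spread least: Sar1a and Sec13 for COPII, Cope for COPI, Tmed3 and Tmed10 for the p24 family and Vamp8 for the SNAREs. Each line holds the 250 bases before the RefSeq start in GRCm38.p6, 5′ to 3′ on the gene's strand, and capitals mark matches to the motifs named after them. The regions are chr10:61680035-61680284 (plus strand), chr6:113740682-113740931 (minus strand), chr8:70302517-70302766 (plus strand), chr9:89705044-89705293 (minus strand), chr12:85374718-85374967 (minus strand) and chr6:72390668-72390917 (minus strand).
Sar1a: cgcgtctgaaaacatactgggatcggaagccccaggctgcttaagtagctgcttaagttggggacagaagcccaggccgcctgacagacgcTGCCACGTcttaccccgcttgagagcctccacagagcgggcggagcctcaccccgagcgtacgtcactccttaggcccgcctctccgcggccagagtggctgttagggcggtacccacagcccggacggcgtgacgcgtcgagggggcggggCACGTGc
Sec13: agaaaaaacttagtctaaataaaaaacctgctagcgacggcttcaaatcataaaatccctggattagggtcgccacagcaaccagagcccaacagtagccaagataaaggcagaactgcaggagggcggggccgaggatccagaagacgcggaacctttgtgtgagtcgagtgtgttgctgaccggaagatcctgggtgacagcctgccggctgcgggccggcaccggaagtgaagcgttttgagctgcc
Cope: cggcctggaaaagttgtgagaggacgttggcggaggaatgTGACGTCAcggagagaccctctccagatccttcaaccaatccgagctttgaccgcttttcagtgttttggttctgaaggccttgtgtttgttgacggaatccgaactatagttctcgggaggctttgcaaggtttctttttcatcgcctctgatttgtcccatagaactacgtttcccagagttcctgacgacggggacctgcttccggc
Tmed3: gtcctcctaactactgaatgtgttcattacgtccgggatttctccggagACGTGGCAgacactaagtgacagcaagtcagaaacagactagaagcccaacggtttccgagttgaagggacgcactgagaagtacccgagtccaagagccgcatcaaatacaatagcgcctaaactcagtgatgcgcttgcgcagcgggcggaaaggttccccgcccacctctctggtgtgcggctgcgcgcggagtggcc
Tmed10: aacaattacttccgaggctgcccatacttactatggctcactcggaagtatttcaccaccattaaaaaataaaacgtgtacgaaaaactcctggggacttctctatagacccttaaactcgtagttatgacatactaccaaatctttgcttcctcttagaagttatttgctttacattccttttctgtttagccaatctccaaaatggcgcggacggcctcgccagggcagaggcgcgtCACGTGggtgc
Vamp8: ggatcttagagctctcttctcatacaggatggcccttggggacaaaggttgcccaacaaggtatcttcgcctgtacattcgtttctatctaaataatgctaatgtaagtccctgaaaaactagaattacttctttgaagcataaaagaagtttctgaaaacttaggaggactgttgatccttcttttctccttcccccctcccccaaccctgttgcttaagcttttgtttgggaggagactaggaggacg
The letters searched on both strands were TGACGTGG (the core of the unfolded protein response element), TGCCACGT, TGACGTCA (the cyclic AMP response element), CACGTG (the E-box) and the ER stress response element (CCAAT, 9 free bases, then CCACG). They were chosen with these members in view. Of the 27025 genes with a RefSeq start region, 0.603%, 0.559%, 1.77%, 6.86% and 0.13% held them in that order. Of the 63 members with one, 3, 5, 2, 8 and 0 did. TGCCACGT lay in Sar1a and, on the opposite strand, in Tmed3, and also in Sec16b, Sec24c and Sec24d. Cope held the cyclic AMP response element and Sar1a and Tmed10 an E-box. Sec13 and Vamp8 held none of these letters. The counts are descriptions of sequence, and nothing here measured binding.

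Among COPII genes, Sar1a, the GTPase that starts coat assembly, was higher at 30 min than before stimulation in both indexes. The 5 pre-stimulation cells held 93.4, 5.92, 0, 5.93 and 324 CPM in IL-13 cells and 89.97, 0, 155, 3.41 and 0 CPM in IL-5 cells. At 30 min the cells ranged from 0 to 2095 CPM with a median of 304 CPM (IL-13) and from 0 to 899 CPM with a median of 414 CPM (IL-5). In IL-5 cells all 5 pre-stimulation cells lay below the median at 30 min, and in both indexes the ranges overlapped. The summed level was 98.5 CPM in pre-stimulation, 467, 349 and 621 CPM at 30, 60 and 90 min, 189 CPM in activated and 126 CPM in silent cells for IL-13. For IL-5 cells it was 44.5 CPM in pre-stimulation, 470.5, 373 and 340.0 CPM at 30, 60 and 90 min, 315 CPM in activated and 344 CPM in silent cells. The ratio of 30 min to pre-stimulation was 2.25 (1.49 to 3.81 on leaving out any 1 cell) in IL-13 cells and 3.401 (2.98 to 5.100 on leaving out any 1 cell) in IL-5 cells, both called. Activated and silent cells were also called above pre-stimulation in IL-5 cells, at 2.82 and 2.95, whereas in IL-13 cells the ratios were 0.94 and 0.35 and were not called. By date, Sar1a at 30 min lay at 193 CPM on the first and 629 CPM on the second date in IL-13 cells, and at 538 and 418 CPM in IL-5 cells. The IL-13 call rests on the second date, since 193 CPM is less than 2-fold above the 98.5 CPM before stimulation.

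Sar1b, its paralog, was at 0 reads in the IL-5 pre-stimulation cells and at 136 CPM in those of IL-13. Against the former it was at least 76.3-fold higher at 30 min, at least 58.2-fold higher in activated and at least 66.4-fold higher in silent cells, while no Sar1b ratio was called in IL-13 cells. The highest Sar1b levels were 448 CPM at 60 min (IL-13) and 399 CPM at 90 min (IL-5). Sec13, part of the outer cage and of the nuclear pore, had a read in 96 of 120 cells, and its group levels spread least among COPII genes. It lay at 237 CPM in pre-stimulation, 191, 329.9 and 238 CPM at 30, 60 and 90 min, 246 CPM in activated and 183 CPM in silent cells for IL-13, and at 269 CPM in pre-stimulation, 240.2, 166 and 377 CPM at 30, 60 and 90 min, 374 CPM in activated and 157 CPM in silent cells for IL-5. In IL-5 pre-stimulation cells 1 cell held 80.4% of its reads, and the ratio of activated to pre-stimulation cells there, 0.47, ranged from 0.079 to 2.402 on leaving out any 1 cell. Its 1 call was in activated against silent IL-5 cells, 1.25 (1.07 to 1.43 on leaving out any 1 cell, but 0.92 and not called without cells holding Cd3g), where activated cells held 0 to 669.9 CPM with a median of 344 CPM and silent cells 0 to 332 CPM with a median of 161 CPM. In IL-13 cells the same ratio was 0.43 (0.26 to 0.59).

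The inner coat genes had reads in fewer cells. Sec23b, which with Sec24 forms the inner layer, was found in 62 of 120 cells. In IL-13 pre-stimulation cells it had 3 reads in 1 cell, and it was 4.18 on the log2 scale (interval 2.61 to 6.47) higher at 30 min and 4.05 (2.48 to 6.35) higher in activated cells. It was also called higher in activated than in silent cells of that index (1.74, 1.17 to 4.01 on leaving out any 1 cell, and 4.73 without cells holding Cd3g) and higher in silent than in pre-stimulation IL-5 cells (1.53). The last value was 0.64, not called, without cells holding Cd3g. Sec24c, a cargo-binding subunit that overlaps the gene 6230400D17Rik on the other strand, went opposite ways in the 2 indexes: 1.87 CPM at 30 min against 40.7 CPM in activated IL-13 cells (-4.45), and 130.1 against 16.3 CPM in IL-5 cells (2.99). It was called lower at 30 min than before stimulation in IL-13 cells (-5.08) and lower in silent IL-5 cells (-3.32, and -3.29, not called, without cells holding Cd3g). One IL-13 pre-stimulation cell held 85.2% of that group's Sec24c reads.

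Sec31a, the second subunit of the cage, had 4 reads in IL-13 pre-stimulation cells and was called higher in activated (2.08) and silent cells (4.94), where 1 silent cell held 78.9% of the reads. Sec23ip, a Sec23-binding phospholipase-like protein, had 0 reads in IL-5 pre-stimulation cells and was called higher at 30 min (at least 10.9-fold), in activated (at least 7.04-fold) and in silent cells (at least 7.25-fold). The calls at 30 min (0.901) and in silent cells (2.27) were lost without cells holding Cd3g. It was also called higher in activated than in silent IL-13 cells (1.82, 1.03 to 2.74 on leaving out any 1 cell, and 3.77 without cells holding Cd3g). Sec16a, the scaffold of ER exit sites, was called lower in activated than in silent IL-13 cells (-2.32), with reads in 1 of 11 activated and 4 of 11 silent cells. As a sum, the 14 COPII genes stood at 678 CPM in pre-stimulation, 1034, 1294 and 1192 CPM at 30, 60 and 90 min, 767 CPM in activated and 817 CPM in silent cells for IL-13, and at 609 CPM in pre-stimulation, 1215, 1136 and 1531 CPM at 30, 60 and 90 min, 1071 CPM in activated and 869 CPM in silent cells for IL-5. The 30 min ratio to pre-stimulation was 0.61 (0.32 to 1.08 on leaving out any 1 cell) and 0.997 (0.68 to 1.35 on leaving out any 1 cell). On the first date alone it was -0.28 in IL-13 cells, so that direction rests on the cells of the second date, and 0.95 in IL-5 cells. Without cells holding Cd3g it was 2.02 in IL-5 cells. The part of those cells in the result was not tested.

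With all cells kept, COPI genes gave the largest class difference of the set, at 30 min in IL-5 cells. The sum of the 9 genes in single pre-stimulation cells was 412, 45.7, 227, 1194 and 9.34 CPM, and at 30 min it was 454 to 1932 CPM with a median of 1262 CPM. Only the highest of the 5 pre-stimulation cells reached into the range at 30 min, and it held 72.8% of that group's COPI reads. In IL-13 cells the pre-stimulation cells held 817, 201, 504, 189.6 and 1102 CPM and the cells at 30 min 84.0 to 1146 CPM with a median of 505 CPM, which overlapped throughout. The summed ratio was 1.72 (1.35 to 3.200 on leaving out any 1 cell) in IL-5 cells and -0.02 (-0.24 to 0.36 on leaving out any 1 cell) in IL-13 cells. On the first date alone these were 1.89 and -0.43, and without cells holding Cd3g the IL-5 value was 0.995, below the 2.02 of COPII. Activated and silent IL-5 cells lay 1.095 (0.72 to 2.57 on leaving out any 1 cell) and 1.36 (0.98 to 2.83) above pre-stimulation, and those of IL-13 0.39 (0.196 to 0.78) and 0.11 (-0.086 to 0.49). The activated values on the first date alone were 1.24 (IL-5) and 1.15 (IL-13) and the silent values 1.26 and 0.595, so the activated cells of the indexes did not lie apart there. The IL-5 values without cells holding Cd3g were 0.42 and 0.695. Of the 7 COPI genes tested, 5 were called higher at 30 min in IL-5 cells (26% of all genes) and 1 in IL-13 cells (21%), where 1 was called lower (8.82%).

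Cope, the epsilon subunit of the coatomer, was found in 95 of 120 cells, the most of any COPI gene. Pre-stimulation cells held 207, 0, 0, 0 and 78.7 CPM (IL-13) and 195, 3.26, 0, 658 and 0 CPM (IL-5). Activated cells held 0 to 987 CPM with a median of 589 CPM (IL-13) and 92.5 to 939 CPM with a median of 400.2 CPM (IL-5). In IL-13 cells 10 of the 11 activated cells had a read against 2 of 5 pre-stimulation cells, and in IL-5 cells 2 pre-stimulation cells lay among the activated cells, of which 1 held 87.7% of its group's reads. In IL-13 cells the level went from 70.5 CPM before stimulation to 194, 365 and 319 CPM at 30, 60 and 90 min and to 487 CPM in activated and 349 CPM in silent cells. The ratios to pre-stimulation were called at 30 min (1.46, 1.18 to 3.03 on leaving out any 1 cell), in activated (2.79) and in silent cells (2.31), and 30 min was called below activated (-1.33). In IL-5 cells the 1 call was at 30 min (1.42, 1.01 to 4.05 on leaving out any 1 cell), and without cells holding Cd3g it fell to 0.36 and was no longer called. The IL-13 call at 30 min rests on the second date, with Cope at 73.5 CPM on the first date, beside 70.5 CPM before stimulation, and 265 CPM on the second. Activated IL-13 cells lay at 772 and 302 CPM on the 2 dates.

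Copz1, the zeta subunit, was called higher at 30 min in IL-5 cells (2.03), with 74.2 CPM before stimulation and 303 CPM at 30 min. Copa, the alpha subunit, overlaps Ncstn on the other strand and moved in opposite directions: from 102 to 4.11 CPM in IL-13 cells (-4.63) and from 37.1 to 227 CPM in IL-5 cells (2.61). It had a read in 2 of 11 cells at 30 min in the former and 8 of 10 in the latter. Copa was also called lower at 30 min than in activated IL-13 cells (-3.39) and higher in silent than pre-stimulation IL-5 cells (1.91, but 0.49 and not called without cells holding Cd3g). Copb2 (beta-prime) had 0 reads in IL-5 pre-stimulation cells and was at least 50.6-fold higher at 30 min, at least 24.1-fold higher in activated and at least 62.9-fold higher in silent cells. Copb1 (beta) was called higher in the same 3 groups (3.11, 3.16 and 2.82) from 12 reads. In IL-13 cells neither gene was called, with Copb2 at 58.1 and Copb1 at 35.3 CPM before stimulation.

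Copg1 (gamma) and Arcn1 (delta) shared their pattern of calls. In IL-13 cells both were called higher at 30 min than in activated cells (Copg1 1.72, Arcn1 1.796). In IL-5 cells both were called higher in silent than in pre-stimulation cells (2.41 and 1.77) and lower in activated than in silent cells (-2.04 and -1.64). Silent IL-5 cells held 0 to 548 CPM with a median of 55.3 CPM of Copg1, and activated cells 0 to 156 CPM with a median of 0 CPM. The ranges overlapped at 0 and above. On leaving out the cells with Cd3g, neither was called in silent against pre-stimulation IL-5 cells (1.36 and 0.945), nor Copg1 at 30 min against activated IL-13 cells (1.65).

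**Figure D3:**
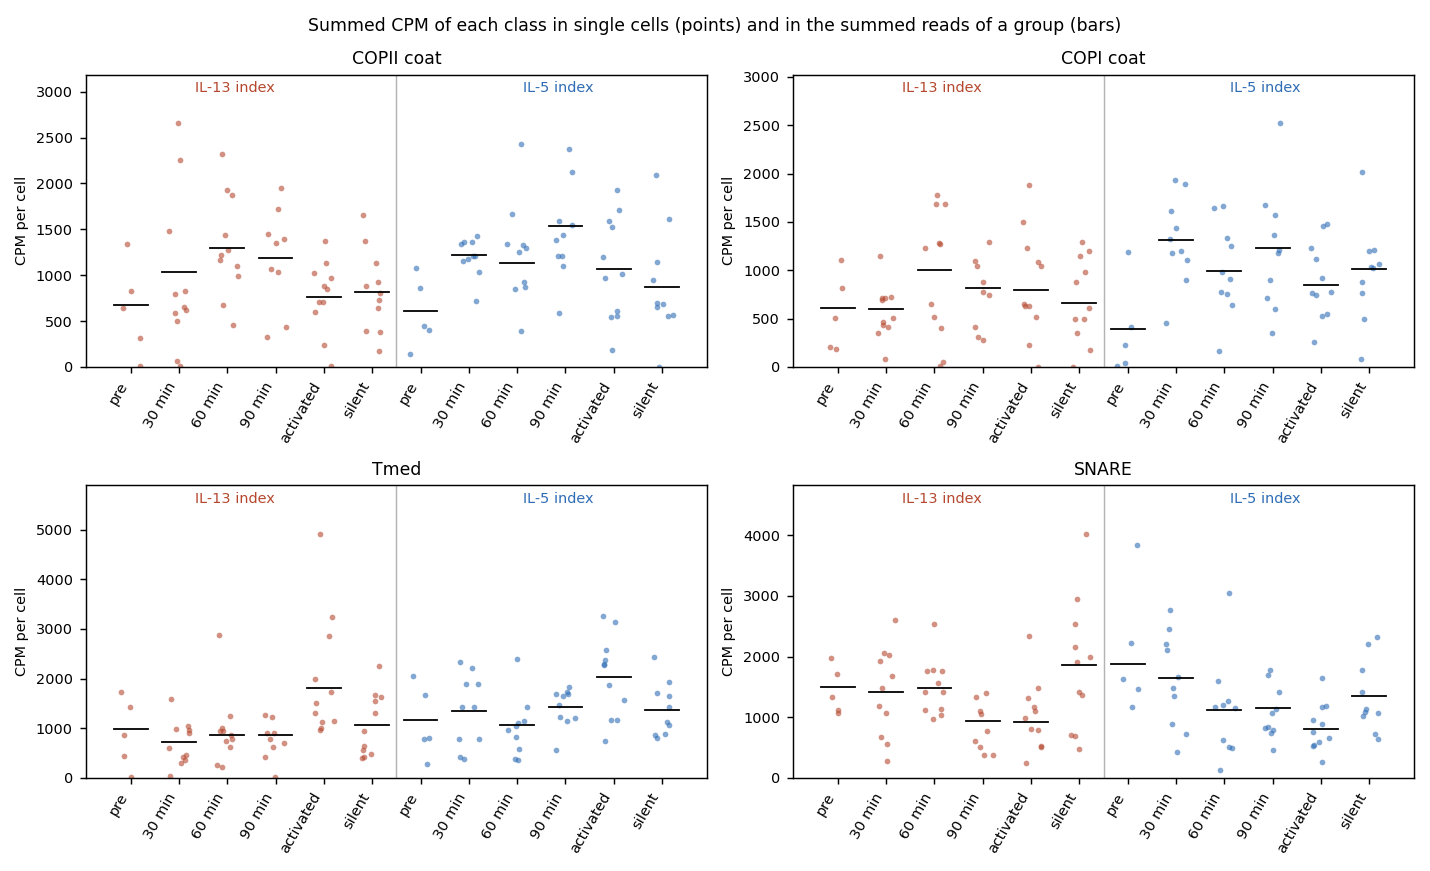
Summed CPM of the COPII, COPI, Tmed and SNARE genes in single cells with at least 84667 gene reads (points) and in the summed reads of each group (black bars), by state, for the IL-13 (red) and IL-5 index (blue). The Tmed bars are highest in the activated groups, at 1809 and 2035 CPM, and the SNARE bars lowest there, at 927 and 804 CPM.

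The Tmed genes as a sum were highest in activated cells of both indexes, which did not hold for each gene, Tmed3 and Tmed7 among them. Their sum was 982 CPM in pre-stimulation, 720.2, 857 and 869 CPM at 30, 60 and 90 min, 1809 CPM in activated and 1068 CPM in silent cells for IL-13, and 1172 CPM in pre-stimulation, 1349.8, 1064 and 1432 CPM at 30, 60 and 90 min, 2035 CPM in activated and 1357 CPM in silent cells for IL-5. Single pre-stimulation cells held 1723, 438, 862, 5.93 and 1417 CPM (IL-13) and 277, 799, 782, 1674 and 2059 CPM (IL-5). Activated cells held 967 to 4912 CPM with a median of 1514 CPM (IL-13) and 734 to 3266 CPM with a median of 2279 CPM (IL-5), so that 3 of 5 IL-13 and 1 of 5 IL-5 pre-stimulation cells lay below all activated cells and the others among them. Silent cells held 395 to 2253 CPM with a median of 946 CPM and 807 to 2435 CPM with a median of 1273 CPM, overlapping the activated range in both indexes.

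The Tmed ratio of activated to pre-stimulation cells was 0.88 (0.61 to 1.31 on leaving out any 1 cell) in IL-13 cells and 0.80 (0.65 to 1.05 on leaving out any 1 cell) in IL-5 cells. Activated cells also lay above silent cells, at 0.76 (0.58 to 0.95 on leaving out any 1 cell) and 0.58 (0.50 to 0.67 on leaving out any 1 cell), and cells at 30 min lay below activated cells, at -1.33 (-1.57 to -1.15 on leaving out any 1 cell) and -0.59 (-0.73 to -0.44 on leaving out any 1 cell). On the first date alone the activated cells lay 0.87 and 0.93 above pre-stimulation and 1.02 and 0.61 above silent cells. Without cells holding Cd3g the IL-5 ratio to pre-stimulation was 0.43 and the ratios to silent cells 0.66 and 0.57. In IL-13 cells the ratio to pre-stimulation could not be had without those cells, since 1 pre-stimulation cell remained. Without Tmed2 and Tmed10, the highest members, activated cells lay 0.87 (0.59 to 2.06 on leaving out any 1 cell) and 0.44 (0.1999 to 0.73) above pre-stimulation and 0.23 and 0.40 above silent cells. In that sum 1 IL-13 pre-stimulation cell held 67.3% of its group's reads. Of 7 Tmed genes tested, 5 were called lower at 30 min than in activated IL-13 cells and 1 in IL-5 cells, and 0 were called higher in either. The background of lower calls was 19% and 13.5% of genes.

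Tmed2, which pairs with Tmed10 in p24 complexes, had a read in 106 of 120 cells, the most of any member. Its level was 306 CPM in pre-stimulation, 241, 263 and 321 CPM at 30, 60 and 90 min, 642 CPM in activated and 406 CPM in silent cells (IL-13), and 116 CPM in pre-stimulation, 563, 248 and 525 CPM at 30, 60 and 90 min, 581 CPM in activated and 286 CPM in silent cells (IL-5). All 11 activated cells of each index held a read, with 250.2 to 2601 CPM with a median of 489 CPM and 82.6 to 1027 CPM with a median of 539 CPM. Pre-stimulation cells held 463, 0, 407, 5.93 and 523 CPM and 0, 169.6, 0, 61.4 and 331 CPM. Tmed2 was called higher than pre-stimulation at 30 min (2.27, 1.92 to 3.004 on leaving out any 1 cell) and in activated cells (2.32, 1.96 to 3.05 on leaving out any 1 cell) for IL-5. The IL-13 ratio of activated to pre-stimulation cells was 1.07 (0.73 to 1.400 on leaving out any 1 cell) and was not called, and 30 min was called below activated (-1.42). By date, activated cells lay at 567 and 691 CPM (IL-13) and at 819.5 and 404 CPM (IL-5).

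Tmed10 (p23) was called higher in activated than in silent IL-13 cells. Silent cells held 0 to 306 CPM with a median of 6.65 CPM and activated cells 192 to 1371 CPM with a median of 487 CPM. All 11 activated cells had a read against 6 of 11 silent cells, and 306 CPM, the highest silent cell, lay below the median activated cell. The ratio was 2.33 (2.12 to 2.64 on leaving out any 1 cell), and by date the activated and silent levels were 667 and 140.2 CPM on the first and 412 and 81.9 CPM on the second. In IL-5 cells it was 0.48 (0.24 to 0.77 on leaving out any 1 cell), from 534 to 745 CPM, and was not called. Tmed10 at 30 min was called below activated in IL-13 cells (-1.38) and stood at -1.21, not called, in IL-5 cells. The IL-13 value was -1.16, not called, without cells holding Cd3g.

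Tmed3 had few reads in transition cells. It lay at 7.26 CPM in pre-stimulation, 18.7, 8.82 and 12.0 CPM at 30, 60 and 90 min, 172 CPM in activated and 241 CPM in silent cells for IL-13, with a read in 1 of 11, 1 of 11 and 1 of 9 cells at 30, 60 and 90 min but in 10 of 11 activated and 9 of 11 silent cells. In IL-5 cells it lay at 186 CPM in pre-stimulation, 32.4, 40.4 and 50.8 CPM at 30, 60 and 90 min, 141 CPM in activated and 110.3 CPM in silent cells, with a read in 3 of 10 cells at 30 min and 9 of 11 activated cells. Pre-stimulation cells held 24.4, 5.92, 0, 0 and 0 CPM and 0, 385, 0, 0 and 504 CPM. The pre-stimulation groups of the 2 indexes thus lay apart, with 3 of the 5 IL-5 cells at 0. Against activated cells, 30 min was called lower in both indexes, at -3.202 (-7.05 to -2.92 on leaving out any 1 cell) and -2.12 (-3.05 to -1.87 on leaving out any 1 cell). Against pre-stimulation, activated and silent cells were called higher in IL-13 cells (4.57 and 5.05), and 30 min was called lower in IL-5 cells (-2.53), a call that was lost without cells holding Cd3g at the same value.

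Tmed7, which overlaps Ticam2 on the same strand, was called higher than IL-13 pre-stimulation cells (5 reads) at 30 min (4.01), in activated (3.27) and in silent cells (4.32). Tmed5 was called higher at 30 min, in activated and in silent IL-5 cells (1.99, 2.22 and 2.21), and it overlaps Mtf2 on the other strand. Its 30 min value was 1.69, not called, without cells holding Cd3g. Tmed9 (-1.76) and Tmed4 (0 reads at 30 min, at least 24.0-fold lower) were called lower at 30 min than in activated IL-13 cells. Tmed1, a receptor-like p24 protein, was under the mean of 20 CPM, with reads in 9 of 120 cells and a highest group of 55.8 CPM.

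**Figure D4:**
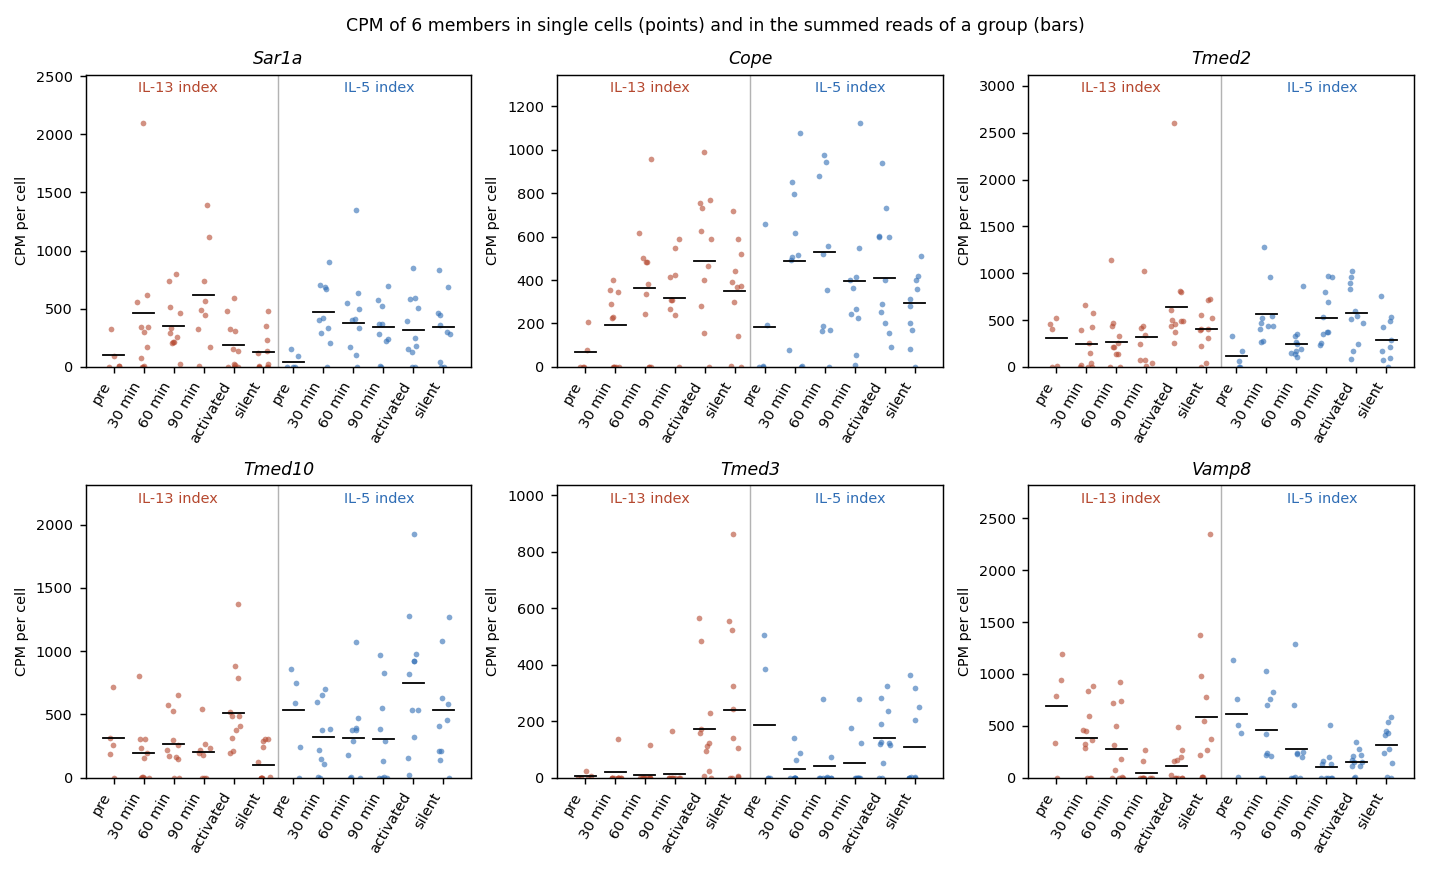
CPM of Sar1a, Cope, Tmed2, Tmed10, Tmed3 and Vamp8 in single cells with at least 84667 gene reads (points) and in the summed reads of each group (black bars), by state, for the IL-13 (red) and IL-5 index (blue). Vamp8 bars go from 689 and 615 CPM before stimulation to 114 and 151 CPM in activated cells.

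The SNARE genes were lowest in activated cells as a sum. In IL-13 cells the 90 min group was about level with activated cells, with intervals of 896 to 990 and 894 to 961 CPM. Most of the difference between activated and pre-stimulation IL-13 cells lay in 1 gene, Vamp8, an R-SNARE of endosomes and secretory granules. The sum of the 31 SNARE genes was 1503 CPM in pre-stimulation, 1419, 1477 and 942 CPM at 30, 60 and 90 min, 927 CPM in activated and 1852 CPM in silent cells for IL-13, and 1878 CPM in pre-stimulation, 1647, 1119 and 1145 CPM at 30, 60 and 90 min, 804 CPM in activated and 1351 CPM in silent cells for IL-5. Pre-stimulation cells held 1975, 1339, 1068, 1126 and 1718 CPM (IL-13) and 3846, 1458, 2228, 1627 and 1167 CPM (IL-5), against 237 to 2335 CPM with a median of 989 CPM and 258 to 1653 CPM with a median of 749 CPM in activated cells. In both indexes the ranges overlapped, and the median activated cell lay below every pre-stimulation cell. Activated against pre-stimulation the ratio was -0.70 (-0.86 to -0.53 on leaving out any 1 cell) and -1.22 (-1.38 to -1.02 on leaving out any 1 cell), and activated against silent -0.999 (-1.16 to -0.82 on leaving out any 1 cell) and -0.75 (-0.904 to -0.63 on leaving out any 1 cell). On the first date alone these were -0.57 and -1.39, and -0.55 and -1.05. Without Vamp8 the ratio to pre-stimulation was -0.0024 in IL-13 cells and -0.95 in IL-5 cells, and the ratio to silent cells -0.64 and -0.66.

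Vamp8 itself lay at 689 CPM in pre-stimulation, 379, 273 and 45.0 CPM at 30, 60 and 90 min, 114 CPM in activated and 586 CPM in silent cells for IL-13. In IL-5 cells it lay at 615 CPM in pre-stimulation, 457, 281 and 106 CPM at 30, 60 and 90 min, 151 CPM in activated and 319.7 CPM in silent cells. Pre-stimulation cells held 784, 942, 334, 0 and 1190.0 CPM in IL-13 cells and 7.50, 431, 1137, 508 and 756 CPM in IL-5 cells. Activated cells held 0 to 489.9 CPM with a median of 26.3 CPM and 0 to 347 CPM with a median of 156 CPM, and silent cells 3.11 to 2348 CPM with a median of 369 CPM and 0 to 583 CPM with a median of 347 CPM. In each index 4 of the 5 pre-stimulation cells lay above the median activated cell. In IL-5 cells those 4 lay above all 11 activated cells, and in IL-13 cells 3 did. The ratio of activated to pre-stimulation cells was called in both indexes, at -2.59 (-2.99 to -2.25 on leaving out any 1 cell) and -2.03 (-2.22 to -1.64 on leaving out any 1 cell). At 30 min Vamp8 was called above activated cells in both (1.73 and 1.601). In silent cells it was called above activated IL-13 cells (-2.36, -2.76 to -1.86 on leaving out any 1 cell), and in IL-5 cells that ratio was -1.09, not called. The T cell marker Cd3g went from 1128 and 1195 CPM before stimulation to 0 in activated cells. In the order of the pre-stimulation cells above, Cd3g lay at 4034, 0, 552, 11.9 and 9.26 CPM (IL-13) and 0, 3643, 1254, 0 and 0 CPM (IL-5). Whether the 2 genes are linked was not tested. Without cells holding Cd3g the IL-5 ratio to pre-stimulation was -1.69, still called, and the IL-13 ratio to silent cells -2.19, no longer called. On the first date alone Vamp8 lay at 154 and 119.9 CPM in activated cells, and on the second at 87.9 and 173 CPM.

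Of the other R-SNAREs, Vamp4, of the trans-Golgi and endosomes, went the same way as Vamp8. Its log2 ratio of activated to pre-stimulation cells was -3.52 (IL-13) and -2.699 (IL-5), from 179 to 15.7 CPM and from 127 to 19.6 CPM. Pre-stimulation cells held 126, 397, 0, 444 and 0 CPM and 577, 0, 75.5, 0 and 266 CPM, and 4 of 11 and 4 of 11 activated cells had a read. It was also called lower at 30 min than before stimulation (-2.28) and lower in activated than in silent cells (-2.64) for IL-13, and lower in silent IL-5 cells than before stimulation (-1.96). Sec22b, the R-SNARE of ER to Golgi transport, had 0 reads in IL-5 pre-stimulation cells and 141 CPM in those of IL-13. Against the former it was at least 32.7-fold higher at 30 min, at least 47.0-fold higher in activated and at least 103-fold higher in silent cells. In IL-13 cells its levels stayed between 108 and 228 CPM with no call. Vamp3, of recycling endosomes, lies within Camta1 on the same strand, and was called lower in activated (0 reads) than in silent cells (100 reads in 2 of 11 cells) for IL-5, by at least 40.6-fold.

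Of 13 Qa-SNAREs, the syntaxins of target membranes, 5 were tested, with reads in 20 (Stx16) to 47 (Stx5a) of 120 cells. Their levels are described gene by gene, with no result for the class. Stx11, whose loss impairs lymphocyte granule release, was at 0 in all 10 pre-stimulation cells and had a read in 38 of 120 cells in all. At 30 min it lay at 187 CPM in 4 of 11 cells (IL-13) and 76.9 CPM in 5 of 10 cells (IL-5), at least 60.04-fold and at least 31.1-fold higher. In activated cells it was at least 19.9-fold and at least 18.6-fold higher, with reads in 6 of 11 and 4 of 11 cells. In silent cells the IL-5 index was called (at least 18.6-fold) and the IL-13 index was not, where 1 cell held 96.9% of the reads. On leaving out the cells with Cd3g, 1 of which had the highest Stx11 level of the silent IL-5 cells (422 CPM), the silent IL-5 ratio was 1.24 and was not called. With reads in so few cells of the larger groups, 5 cells at 0 are a small sample.

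Stx4a, a plasma membrane syntaxin, was at 0 in IL-13 pre-stimulation cells and at 64.3 CPM, all in 1 cell, in those of IL-5. It was called at least 16.8-fold higher in activated and at least 20.4-fold higher in silent IL-13 cells, and higher at 30 min than in activated IL-5 cells (1.501, but 1.26 and not called without cells holding Cd3g). Stx5a, the syntaxin of the Golgi entry face, was called higher at 30 min than before stimulation (2.96) and than activated (2.32), and higher in silent than in pre-stimulation cells (1.65), in IL-13 cells. In IL-5 cells it was called lower in activated cells than before stimulation (-2.41) and than in silent cells (-1.900), and 1 activated cell held all its reads. The former was -1.96, not called, without cells holding Cd3g. Stx16, of the trans-Golgi, was at 0 in activated IL-5 cells, at least 117-fold lower than before stimulation, at least 45.4-fold lower than in silent cells and at least 34.7-fold below 30 min. Its reads in IL-5 pre-stimulation cells all lay in 2 cells that held Cd3g, without which both groups were at 0, and the ratio to 30 min was then not called either. In IL-13 cells it was called lower in activated than in silent cells too (-1.69, and -1.61, not called, without cells holding Cd3g), and higher in silent cells than the 3 reads before stimulation (3.94, interval 2.36 to 6.23). Stx7, of late endosomes, was at 0 in IL-5 pre-stimulation cells, at least 20.03-fold higher in silent cells, and called lower in activated than in silent cells (-2.25). Without cells holding Cd3g the former was 0.658, not called, and the latter turned to 0.50.

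Among Qb, Qc and Qbc SNAREs, Stx6 (Qc, trans-Golgi) differed between the indexes before stimulation. It was at 0 in IL-13 pre-stimulation cells, and in those of IL-5 it held 997, 9.79, 536, 0 and 0 CPM. It was called at least 29.4-fold higher at 30 min, at least 25.9-fold higher in activated and at least 24.4-fold higher in silent IL-13 cells, but lower in activated (-2.37) and silent (-3.07) IL-5 cells. The IL-5 values were -2.23 and -3.05, not called, without cells holding Cd3g. The activated levels themselves were 80.5 and 44.2 CPM. Stx6 at 30 min was called above activated in IL-5 cells (1.73). Stx8 (Qc, late endosomes) at 30 min was called below activated in IL-13 cells (-1.56, and -1.24, not called, without cells holding Cd3g) and above it in IL-5 cells (2.85). Vti1a (Qb) had no call in the 10 comparisons of states and was called between the indexes at 30 and 90 min and in activated and silent cells.

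Snap23 (Qbc), the partner of Stx4a and Stx11 at the plasma membrane, was at 0 in IL-5 pre-stimulation cells. It lay at 9.57, 6.73 and 6.56 CPM in the 3 transition groups and at 52.8 CPM in activated and 16.0 CPM in silent cells. Activated cells were called above pre-stimulation (at least 21.3-fold), above silent cells (1.72, 1.04 to 2.84 on leaving out any 1 cell, and 1.39, not called, without cells holding Cd3g) and above 30 min (the ratio of 30 min to activated was -2.46), and silent cells above pre-stimulation (at least 6.46-fold). In IL-13 cells Snap23 lay at 28.0 CPM in pre-stimulation, 17.2, 5.55 and 6.00 CPM at 30, 60 and 90 min, 51.0 CPM in activated and 45.0 CPM in silent cells with no call, and 6 of 11 activated cells had a read. Snap47 (Qbc), which overlaps Jmjd4 on the other strand, was called lower in activated than in silent cells (-3.98) and higher at 30 min than in activated cells (2.72) for IL-13.

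Of the Stxbp regulators, Stxbp2 (Munc18-2), the Sec1/Munc18 partner of Stx11, was at 0 in IL-13 pre-stimulation cells and had a read in 4 of 5 IL-5 pre-stimulation cells, with 120.0, 0, 125, 3.41 and 135 CPM. In IL-13 cells it was called at least 19.1-fold higher at 30 min, at least 9.06-fold higher in activated and at least 20.5-fold higher in silent cells. In IL-5 cells no ratio to pre-stimulation was called (0.39, -1.09 and -0.10), and 30 min was called above activated (1.49). Stxbp6 (amisyn), a SNARE-binding inhibitor, had reads in 16 of 120 cells. It fell from 105 CPM before stimulation to 0 at 30 min in IL-13 cells (at least 93.5-fold lower) and went from 0 to 38.3 CPM in IL-5 cells (at least 15.5-fold higher). Activated cells lay at 21.0 and 42.9 CPM, called below (-2.32) and above (at least 17.3-fold) pre-stimulation, and above silent cells in both (at least 18.5-fold, and 2.65). Silent IL-13 cells at 0 reads were at least 92.4-fold below pre-stimulation, and 30 min at least 18.7-fold below activated. Stxbp3 (Munc18c), the partner of Stx4a, was under the mean of 20 CPM, with reads in 26 of 120 cells and a highest group of 48.0 CPM.

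**Figure D5:**
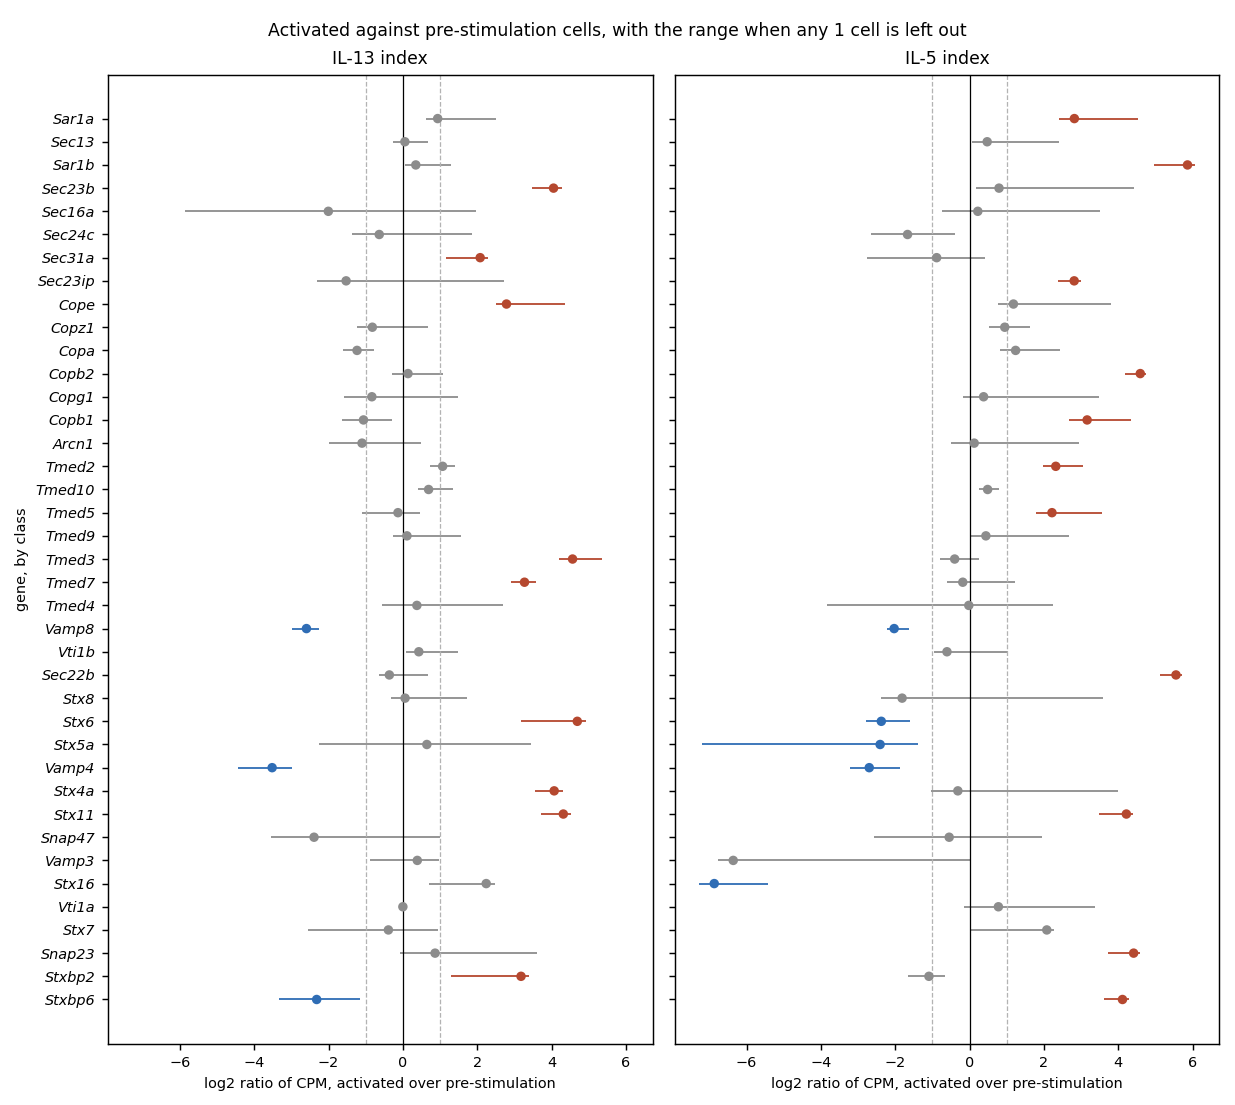
Log2 ratio of CPM in activated over pre-stimulation cells (x axis) for the 39 members by class (y axis) in the IL-13 (left) and IL-5 index (right), with bars for the range on leaving out any 1 cell. Dashed lines mark 2-fold, red and blue mark called members (9 higher and 3 lower on the left, 11 higher and 5 lower on the right), and grey marks the others.

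The other 33 members stayed under a mean of 20 CPM, and 9 of them had 0 reads in all 31016336 gene reads, which allows up to 3 reads, among them Copz2, Sec16b, Sec22c, Sec31b, Snap25, Stxbp5l, Tmed11 and Tmed6. Of the 24 with reads, the highest group of any reached 111 CPM (Sec24a) and that of Vamp1 reached 1.09 CPM, and all had at least 1 group at 0. Among coat genes these were Copg2, Sec23a, Sec24b, Sec24a and Sec24d, and among cargo receptors Tmed8 and Tmed1. The SNAREs were Stx12, Stx18, Sec22a, Stx2, Stx17, Snap29, Stx3, Stx1a, Vamp2, Vamp5, Vamp9, Stx19 and Vamp1, and the regulators included Stxbp3, Stxbp5 and Stxbp4. Vamp2 and Snap25, SNAREs of synaptic release, had reads in 20 and 0 of 120 cells.

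The number of members with a read per cell was compared after thinning 113 cells to 100000 gene reads, which left out 7 shallower cells (3 in the IL-13 90 min group, 1 each in the IL-5 30, 60, 90 min and silent groups). The median was 14 members before stimulation (8 to 30) and 23 in activated cells (11 to 27) in IL-13 cells, and 18 (14 to 19) and 23 (17 to 28) in IL-5 cells. Unthinned medians were 14 and 25, and 19 and 24. The ranges overlapped. All genes detected moved alongside, with medians of 1914 and 2926 (IL-13) and 2249 and 2991 genes (IL-5), so members made up a median of 0.731% and 0.769%, and 0.763% and 0.721%, of the genes detected in a cell.

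A list of 63 further trafficking genes, with other SNAREs, SNARE recycling, Arf and Rab GTPases, cargo receptors and tethers, was set beside the members, and 46 passed the mean of 20 CPM. In activated against pre-stimulation cells, 12 higher and 0 lower were called in IL-13 cells and 14 higher and 7 lower in IL-5 cells, against 25.9% of all genes higher and 10% lower, and 29.6% and 11.4%. At 30 min against pre-stimulation the counts were 11 higher and 3 lower (21% and 8.82% of all genes), and 16 higher and 0 lower (26% and 8.59%). Silent against pre-stimulation gave 13 higher and 3 lower (22.6% and 7.58%), and 14 higher and 1 lower (26.3% and 9.1%). Activated against silent gave 5 higher and 4 lower (13.6% and 14.6%), and 8 higher and 8 lower (10.8% and 10.2%), and 30 min against activated 6 higher and 11 lower (14.9% and 19%), and 8 higher and 4 lower (14% and 13.5%). Lman1 (ERGIC-53, the lectin that carries glycoproteins from ER to Golgi) was called in both indexes, with 0 CPM in both pre-stimulation groups and 99.9 and 145 CPM in activated cells. Kdelr2, the receptor that returns ER residents, went from 9.33 to 193 CPM (4.37) and from 7.42 to 201 CPM (4.76), called in both. Bet1, the Qc SNARE of ER to Golgi fusion, was called in IL-13 cells, from 0 to 101 CPM, and stood at 31.3 and 64.6 CPM in IL-5 cells, not called. Mia3, an ER exit site protein for large cargo, and Rab37, a Rab of secretory granules, were called lower in activated IL-5 cells, from 230.2 and 125 CPM to 0.268 CPM each, which is 1 read.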

How the data were processed

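Each of the 120 libraries came from 1 cell (SMART-Seq v4, 3′ DE chemistry), and 5 or 6 libraries were pooled before tagmentation. The deposited values are raw counts per gene, which the authors made by aligning the transcript read to GRCm38 with TopHat2 and counting with HTSeq, per the labels and the methods of the study. HTSeq's strand setting and its annotation release are not given in the sources used here, so reads of overlapping genes on either strand may be mixed. Each file lists 46078 genes and 5 HTSeq tallies, which were kept out of depths. Of all tallied reads, 62.0% lay in genes, 28.7% were not unique, 7.42% had no feature and 1.86% were ambiguous. Symbols and positions came from the GRCm38 annotation by gene identifier, which named 45143 genes. The 935 others held 0.0886% of reads. Members were the protein-coding genes that matched the symbol patterns, and 2 pseudogenes were left out.

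Groups came from the source names in the labels. The counts of a group's cells were added up and expressed per 1000000 gene reads (CPM). Ratios carry exact (Clopper-Pearson) 95% binomial intervals of the split of reads, with a floor of 3 reads over a group. Where both groups were at or under the floor the ratio was set to 0. A call needed a ratio of at least 2-fold that stayed so on leaving out any 1 cell. No test was run and no p-value or SD is given, since a group is 1 sample. The members and lists were chosen with earlier results of these data known. Named were the tested members with a call, apart from a few members not reported here by name, the highest member of each class, Stx11, Stxbp2, Vamp8, Snap23, Stx4a, Stx5a, Sec22b, Tmed1 and Stxbp3, and up to 6 called genes of the other trafficking list.

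The calling script was run on simulated data with known changes, and the rate of false calls there is not given here. Alternatives were scaling by TMM (edgeR) or by size factors (DESeq2), averaging CPM over cells, other CPM minimums, a pseudocount of 10 CPM, the pre-stimulation cells of both indexes together, each title date alone, no shallow cells and leaving out each cell. Leaving out cells with a Cd3g read, Vamp8, or Tmed2 and Tmed10 was added after the data were seen, as were the first date alone for classes and the comparison of the indexes. Python 3.11.15 (pandas 2.3.3, numpy 2.4.6, matplotlib 3.10.9, scipy 1.17.1) was used, and R 4.3.3 (DESeq2 1.42.0, edgeR 4.0.16) gave the scaling factors. Start regions came from RefSeq.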

Additional observations from a re-analysis of the deposited data

Results flagged for a closer look

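Highest and lowest cells were examined in the 2 pre-stimulation groups, for 28 sets of 5 cells with reads in at least 4 of them. In 4 of these the highest cell stood far from the others. The sets share cells and genes, so these 4 were not set against a rate expected by chance. In the IL-13 index, 1 cell held 946.6 CPM of the Tmed genes without Tmed2 and Tmed10, with 254.8 CPM in the next cell, and another held 324.1 CPM of Sar1a, with 93.45 CPM in the next. In the IL-5 index, 1 cell held 3839 CPM of the SNAREs without Vamp8, with 1119 CPM in the next, and another held 854.6 CPM of Sec13, with 226.6 CPM in the next.

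In 7 cases a member was called in opposite directions in the 2 indexes. The difference between the indexes was not tested and cannot be told apart from their title dates. At 30 min against pre-stimulation Copa was at -4.628 (log2) for IL-13 and 2.61 for IL-5, and Stxbp6 at -6.546 and 3.952. In activated against pre-stimulation cells Stx6 was at 4.693 and -2.375 and Stxbp6 at -2.32 and 4.115, and in silent against pre-stimulation cells Stx6 was at 4.609 and -3.065. At 30 min against activated cells Sec24c was at -4.446 and 2.992 and Stx8 at -1.559 and 2.852. In the 5 cases against pre-stimulation the starting levels of the indexes differed, and 4 of them hold a group at 0 reads, whose values rest on the floor of 3 reads.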

How the results depend on the processing

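No paired analysis was possible because the labels give the cells no replicate numbers (cells were numbered in the order of deposit, as names alone) and the results come from no test. TMM and DESeq2 factors shift the ratios of all genes alike, by up to 0.47 and 0.34 (log2, activated against pre-stimulation, IL-5). With TMM the sum of all members in the IL-5 index was 0.8093 at 30 min, 0.7019 in activated and 0.5598 in silent cells against pre-stimulation, and with DESeq2 0.5667 in activated cells. On the first date alone COPII reversed at 30 min in the IL-13 index (-0.2766 against pre-stimulation, -0.7043 against activated) and the IL-5 index (-0.006236 against activated), and the SNAREs in silent against pre-stimulation IL-13 cells (-0.02416). Without cells holding Cd3g, COPII at 30 min in the IL-5 index was 2.018, Tmed against pre-stimulation reversed at 30 min (-0.05068) and in silent cells (-0.1452), Stx7 in activated against silent cells reversed (0.5005), and 11 members were called in silent against pre-stimulation cells of that index. Without Vamp8 the SNARE ratio of activated to pre-stimulation IL-13 cells was -0.002414, and without Tmed2 and Tmed10 the Tmed ratio at 30 min in the IL-5 index was -0.1715. The number of members called in silent against pre-stimulation IL-13 cells was 5 with the pre-stimulation cells of both indexes and 6 at a minimum of 50 CPM. In activated against silent IL-13 cells it was 14 on the second date, 14 with no minimum and 5 at 50 CPM. In the IL-5 index it was 25 in activated against pre-stimulation with no minimum, 11 in silent against pre-stimulation with the pseudocount, 15 in activated against silent on the first date and 3 at 50 CPM, and 14 and 5 at 30 min against activated with no minimum and at 50 CPM. Leaving out any 1 cell gave, in the order 30 min, activated and silent against pre-stimulation, activated against silent and 30 min against activated, 10 to 15, 10 to 15, 8 to 14, 7 to 12 and 13 to 19 calls for IL-13 and, for IL-5, 12 to 18, 14 to 22, 13 to 19, 7 to 11 and 7 to 12. Called members were recomputed with TMM and DESeq2 factors, averaged CPM, no shallow cells, no cells holding Cd3g and each cell left out. The other alternatives were not run on them. Of these 2828 values, 2560 kept their call, 267 lost it without reversing and 1 reversed. Leaving out each cell gave 2242 of them (2020 kept), which could not reverse by the definition of a call. Without cells holding Cd3g, 63 of 90 kept it. Class ratios had 1466 values under the alternatives run on them. Of these, 1453 kept any stable direction and moved by less than 1 SD of the single cells on the log2(CPM + 1) scale, a wide margin. Apart from leaving out 1 cell, 112 of 362 class ratios lay outside the range on leaving out any 1 cell, 31 of 60 on the first date alone, such as COPI in IL-13 cells (-1.572 at 30 min against activated and 1.147 in activated against pre-stimulation cells) and the Stxbp genes at 30 min against pre-stimulation IL-13 cells (-3.937). The causes of these changes were not tested beyond what each alternative leaves out. Depth limits low members, and a 0 in 5 pre-stimulation cells allows up to 3 reads.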

Other observations

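Calls between the indexes within other states lay on either side of the share of all genes. As the indexes share no title date, these are also differences between dates. At 30 min 14 of 39 were called between the IL-13 and IL-5 index, against 24.6% of all genes tested, with a median log2 ratio of -0.59 for the members and -0.18 for all genes. Copa, Copb1, Cope and Copz1 were among those called lower in the IL-13 index, and Snap47, Stx5a and Vamp3 were called higher. At 60 min 7 of 39 were called, below the background of 23.7%, and at 90 min 12 (background 23.4%), with medians of -0.46 and -0.12. Arcn1, Copb1, Copg1 and Copz1 were among those called lower in the IL-13 index. Silent cells gave 7 calls, also below the background of 23.8%. With TMM and with DESeq2 factors the count at 30 min was 10, and at 90 min 10 and 9, for which no share of all genes was computed. When CPM were averaged over cells the counts were 15 and 7. These genes were named after their values were seen.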
